A study of Rattus norvegicus with 14 samples.

Results

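Mup5 and Obp1f encode secreted lipocalins, and their expression was followed litter by litter in the foreskin of newborn male rats. Both genes were chosen by the wide spread of their array values between litters, so that spread is given here as a description and was not tested. Every probe set annotated with exactly 1 gene symbol, Mup5 or Obp1f, was used. This gave 3 of the 28826 probe sets on the array, 1 for Mup5 and 2 for Obp1f, or 2 of the 14497 genes compared. No filter on low values was applied, and both genes entered the test.

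Lipocalins are small proteins folded into a barrel whose hollow centre holds a lipophilic ligand. The major urinary proteins, called alpha-2u globulins in the rat, carry volatile pheromones and are made by the adult male liver and by glands such as the preputial and lacrimal glands, in several of these sites under hormonal control. Odorant-binding proteins such as Obp1f are made by glands of the nasal cavity and carry odorants through mucus. The preputial gland is a modified sebaceous gland that lies beside the penis and opens at the foreskin.

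The samples were foreskins of Sprague Dawley pups taken on postnatal day 5. Their mothers had been gavaged on gestational days 16 to 20, in 7 litters with corn oil, the vehicle, and in the other 7 litters with 5 mg/kg/day flutamide, which opposes the action of androgens. Each sample was RNA from 2 foreskins of the same litter combined, hybridised to 1 Affymetrix Gene 1.0 ST array. The comparison asks whether the antiandrogen given before birth was followed by a different level of these genes after it.

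The rat genome holds a cluster of major urinary protein genes that are close copies of each other. Identity was computed here for promoters only, and not for the transcripts that the array probes bind. It does not show which copies the Mup5 probe set reads. The 250 bases before the annotated start of Mup5 (GRCr8, chr5:79999696-79999945, minus strand) were 94.8% identical to those of Mup4 (chr5:79759497-79759746, minus strand), in a global alignment of RefSeq promoters. Against Mup4l4, Obp3, Mup4l3 and Mup4l1 the identity was 89.1%, 83.6%, 80.4% and 75.1%. Against 20 other genes listed as lipocalins it ran from 40.3% to 48.3%, and against Obp1f (chrX:45833756-45834005, plus strand) it was 46.9%. The sequences of both members and of the closest copy are shown 5′ to 3′ to let the copies be compared, with TATAAA, the core of the TATA box, in capitals.
Mup5: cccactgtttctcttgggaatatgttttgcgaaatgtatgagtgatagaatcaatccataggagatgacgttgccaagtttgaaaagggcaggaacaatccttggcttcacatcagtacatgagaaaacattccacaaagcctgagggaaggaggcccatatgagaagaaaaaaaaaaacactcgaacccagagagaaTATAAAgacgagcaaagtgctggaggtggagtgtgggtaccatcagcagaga
Mup4: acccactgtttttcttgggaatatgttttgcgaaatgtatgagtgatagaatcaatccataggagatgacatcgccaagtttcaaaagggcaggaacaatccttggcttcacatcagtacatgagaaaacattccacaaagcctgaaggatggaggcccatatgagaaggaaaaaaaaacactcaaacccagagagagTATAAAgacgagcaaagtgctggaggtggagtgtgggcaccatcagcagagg
Obp1f: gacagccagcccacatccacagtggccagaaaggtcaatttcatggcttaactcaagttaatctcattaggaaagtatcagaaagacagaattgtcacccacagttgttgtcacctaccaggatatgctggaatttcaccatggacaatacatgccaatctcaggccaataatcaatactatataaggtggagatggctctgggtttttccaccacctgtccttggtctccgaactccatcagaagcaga
TATAAA stood in the same place in Mup5 and Mup4, starting at base -52 from the annotated start, and was found on either strand in 12.9% of 33469 RefSeq promoters of this length. The exact letters TATAAA did not occur in the window of Obp1f, which holds the similar letters tatataag. The search for exact letters does not show that Obp1f lacks a TATA box. AGAACA, a half-site of steroid receptors, was searched on both strands (as TGTTCT on the other) and did not occur in the windows of Mup5 or Obp1f, while Obp3 had 2 matches. It occurred in 17.5% of the 33469 promoters. No motif match was counted as a binding site.

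Mup5 had values that ran over a wide range in both groups. On the log2 scale of the deposited values, the corn oil litters ran from 4.74 to 7.13 with a median of 6.01, and the flutamide litters from 3.40 to 6.51 with a median of 5.68. Corn oil replicate 1 was the highest litter and flutamide replicate 4 the lowest, and they were 13.3-fold apart. Within corn oil alone the highest and lowest litters differed by 5.23-fold, and within flutamide alone by 8.67-fold. The groups overlapped over most of this range, with 1 flutamide litter below every corn oil litter and none above.

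Ordered by Mup5, corn oil replicate 1 was followed by flutamide replicate 1 (6.51), corn oil replicate 3 (6.38), corn oil replicate 7 (6.29) and corn oil replicate 5 (6.01). In the middle stood flutamide replicates 7, 6, 3 and 2 at 5.87, 5.72, 5.68 and 5.43, with corn oil replicate 6 at 5.39 just below them. The low end held corn oil replicate 4 (5.12), flutamide replicate 5 (4.77), corn oil replicate 2 (4.74) and flutamide replicate 4. No single gap divided the litters, apart from the 1.34 between flutamide replicate 4 and the next litter; the next widest gap, 0.61, lay below corn oil replicate 1. The SD within groups, 0.92, was the highest of the 14497 genes, whose median SD was 0.138.

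**Figure D1:**
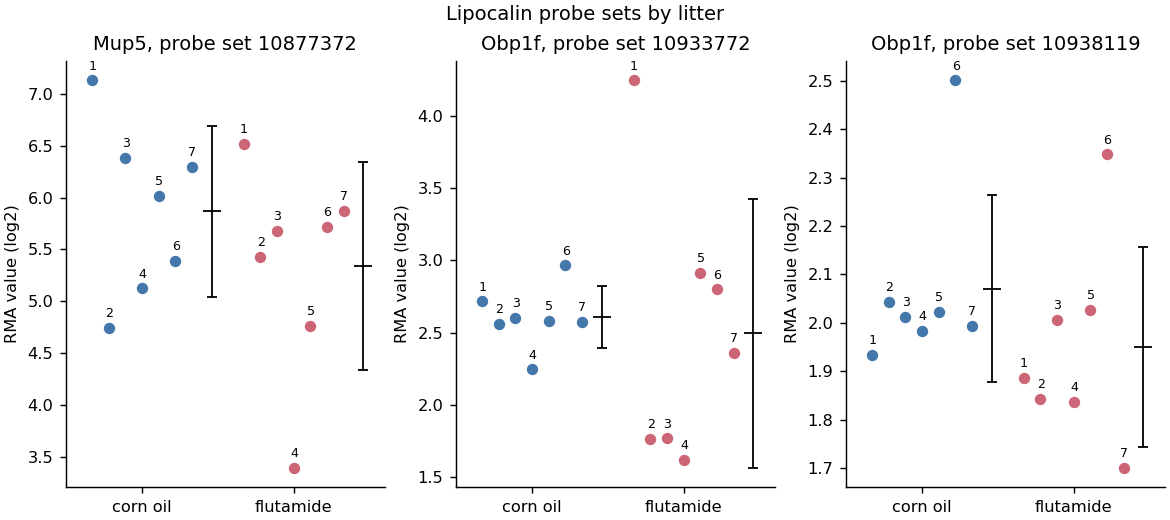
Deposited RMA values (log2) of the Mup5 probe set and of both Obp1f probe sets, 1 point per litter with its replicate number, in 7 corn oil and 7 flutamide litters; the bar beside each group is its mean with the SD. Mup5 runs from 3.40 to 7.13 over both groups, and Obp1f on probe set 10933772 runs from 1.62 to 4.24 in flutamide but only from 2.25 to 2.96 in corn oil litters.

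Mup5 averaged 5.87 ± 0.83 (SD, n = 7) after corn oil and 5.34 ± 1.00 (SD, n = 7) after flutamide. The difference of -0.53 (SE 0.40; 95% confidence interval -1.36 to 0.30) did not pass in limma, whose p adjusted by Benjamini-Hochberg was 0.728. Of all genes tested, 1 passed at an adjusted p under 0.05, which is 0.0069%, and 0 of the 2 members did. The exact permutation test of the means gave a two-sided p of 0.314, where 0.000583 is the smallest it can reach with 7 against 7. The interval includes both no difference and a fall of more than 2-fold, so the data do not show that the groups were alike. The difference was -0.20 without flutamide replicate 4 and -0.32 without corn oil replicate 1. Without both it was 0.01 (exact permutation p = 0.989), although leaving out the top of one group and the bottom of the other moves a difference upward by itself.

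Obp1f behaved differently on its brighter probe set, 10933772, where the corn oil litters lay close together and the flutamide litters far apart. The corn oil litters ran from 2.25 to 2.96 with a median of 2.58, and the flutamide litters from 1.62 to 4.24 with a median of 2.36. Flutamide replicate 1 stood at 4.24, above every corn oil litter. Flutamide replicates 2, 3 and 4 stood at 1.77, 1.77 and 1.62, below every corn oil litter. The remaining flutamide litters, replicates 5, 6 and 7 at 2.92, 2.80 and 2.36, fell within the corn oil range.

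The SD of this probe set was 0.21 in corn oil and 0.93 in flutamide litters, and the mean absolute deviation from the group median was 0.128 and 0.686. These values were not tested, since the gene was chosen for its spread. Its SD within groups was rank 10 of the 14497 genes. It averaged 2.60 ± 0.21 (SD, n = 7) after corn oil and 2.50 ± 0.93 (SD, n = 7) after flutamide, which differ by -0.11 (SE 0.29; 95% confidence interval -0.72 to 0.50; limma adjusted p = 0.945; exact permutation p = 0.785). Without flutamide replicate 1 the difference was -0.40 (limma adjusted p = 0.475). Leaving out flutamide replicate 2, 3 or 4 turned it to 0.01, 0.01 and 0.04.

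The other Obp1f probe set, 10938119, covered a smaller range. It ran from 1.93 to 2.50 in corn oil litters with a median of 2.01, and from 1.70 to 2.35 in flutamide litters with a median of 1.89. Its highest litters were corn oil replicate 6 and flutamide replicate 6. Flutamide replicate 1, the highest litter on the brighter probe set, had 1.89 here, below the median over both groups. It averaged 2.07 ± 0.19 (SD, n = 7) after corn oil and 1.95 ± 0.21 (SD, n = 7) after flutamide. The difference was -0.12 (SE 0.10), with limma adjusted p = 0.736 over all probe sets, of which 0.00347% passed, and an exact permutation p of 0.301.

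Both Obp1f probe sets gave values near the low end of the arrays. Of all values in the table, 1.13% lay below the lowest value of 10938119 and 4.50% below its highest. For 10933772 these shares were 0.851% and 19.2%, and for Mup5 they were 10.2% and 83.3%. These positions describe signal on the array and not the amount of RNA of 1 gene against another. No detection calls were used here, so neither gene was called present or absent in a litter.

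The litters high for Mup5 were not shown to be those high for Obp1f. Over 14 litters Pearson's r between Mup5 and the brighter Obp1f probe set was 0.476 (permutation p = 0.0869, adjusted over 5 relations 0.434) and Spearman's rho 0.420 (permutation p = 0.138, adjusted 0.328). Without flutamide replicate 4 and corn oil replicate 1, the litters farthest from the Mup5 median, r was 0.325 (permutation p = 0.319). Within corn oil r was 0.250 (exact permutation p = 0.623) and within flutamide 0.582 (exact permutation p = 0.165). Between Mup5 and the other Obp1f probe set r was -0.000647 (permutation p = 0.998) and rho -0.178 (permutation p = 0.542), or r -0.203 without the same 2 litters. Between both Obp1f probe sets r was 0.254 (permutation p = 0.347) and rho 0.521 (permutation p = 0.0598), and without flutamide replicates 1 and 4 r was 0.554 (permutation p = 0.0552) and rho 0.664 (permutation p = 0.0217). Without flutamide replicate 1 alone r was 0.593 (permutation p = 0.0315) and rho 0.714 (permutation p = 0.00786). Without corn oil replicate 6 alone r was 0.18 and rho 0.456 (permutation p = 0.118). Without flutamide replicate 4 alone r was 0.173 and rho 0.423 (permutation p = 0.148). The agreement of the 2 probe sets moved up or down with single litters.

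The spread of each array, the SD over all its values, was set against both genes as a check of array quality. With Mup5 its r was 0.310 (permutation p = 0.280; rho 0.367, permutation p = 0.197), and 0.000244 without flutamide replicate 4 and corn oil replicate 1. With the brighter Obp1f probe set r was -0.0914 (permutation p = 0.753; rho -0.0549, permutation p = 0.858), and -0.179 without flutamide replicates 1 and 4. None of the 5 relations passed after adjustment.

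Another 11 probe sets are annotated with several major urinary protein genes at once, among Mup4, Mup4l1, Mup4l3, Mup4l4, Mup5 and Obp3, and 9 of them list Mup5. They are no members, and because the copies share sequence they are not independent readings of Mup5. The Mup5 probe set itself rests on 1 sequence record, which 4 of the 11 also list. Flutamide replicate 4 was the lowest litter on 11 of these 11 probe sets, and corn oil replicate 1 the highest on 10. The exception, probe set 10877307, had corn oil replicate 2 highest at 4.84 and the lowest values of the set, 3.08 to 4.84.

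The ranges of the shared probe sets over all litters ran from 1.76 to 4.28 on the log2 scale with a median of 2.51, against 3.73 for Mup5. On probe set 10877286, which had the widest range, flutamide replicate 4 stood at 6.30 and corn oil replicate 1 at 10.58. With values centred on the group means, their r with Mup5 over 14 litters ran from 0.429 to 0.967 with a median of 0.947. Without flutamide replicate 4 and corn oil replicate 1 it ran from 0.119 to 0.914 with a median of 0.866. The mean was lower in flutamide litters on 11 of 11, by differences from -0.38 to -0.08 with a median of -0.31, but 0 of the 11 passed in the limma fit over all probe sets (adjusted p from 0.634 to 0.954). Of all genes tested, 6921 of 14497 had a lower mean in flutamide litters, and the 11 probe sets are not independent readings. The count of 11 rested largely on single litters. Leaving out flutamide replicate 4, an alternative added after seeing the data, left 6 of 11 lower and 5 higher with a median difference of -0.04, and leaving out corn oil replicate 1 left 8 lower with a median of -0.14. Without corn oil replicate 3 it was 10 of 11, and with any of the other 11 litters left out 11 of 11. By group medians in place of means 7 were lower and 4 higher in flutamide litters.

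**Figure D2:**
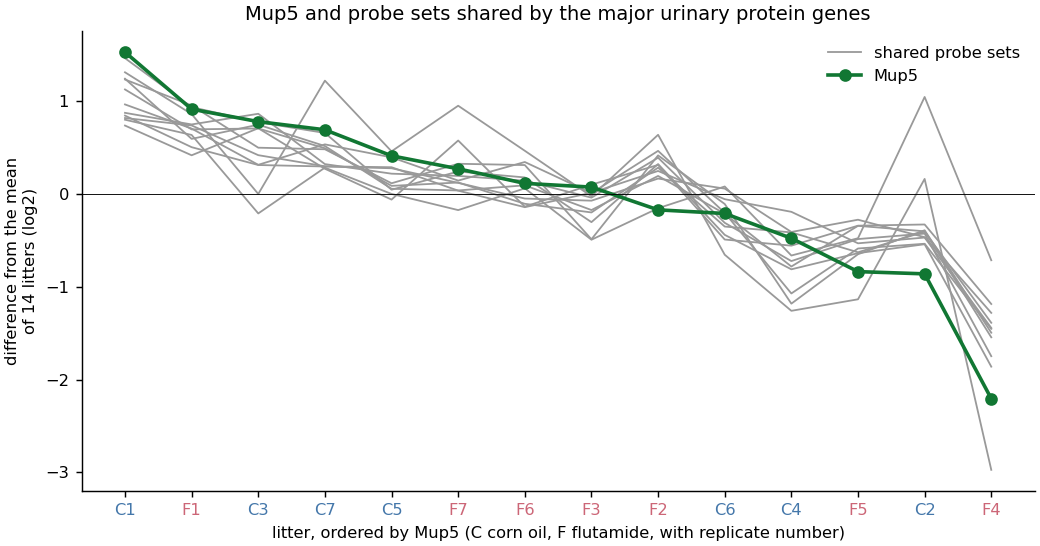
Log2 values of Mup5 (green) and of the 11 probe sets shared by major urinary protein genes (grey), each as its difference from its own mean of 14 litters, with litters ordered by Mup5. Most shared probe sets follow the order of Mup5, and flutamide replicate 4 is the lowest litter on all 11.

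The genes whose litter pattern was most like Mup5 were led by Chpt1, Klk6, Gda and Ada. They were named by the highest Pearson r with Mup5 over 14 litters, after the values were centred on the group mean, and because they were picked for it their r has no test. In all, 75 of 14496 genes, 0.517%, had an r of at least 0.7 with Mup5, and 50, 0.345%, had -0.7 or lower. Chpt1, the cholinephosphotransferase of phosphatidylcholine synthesis, had an r of 0.942. It ran from 7.73 to 8.49 in corn oil litters with a median of 8.33, and from 7.41 to 8.38 in flutamide litters with a median of 8.20.

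Ada, adenosine deaminase, had an r of 0.892 and the widest range of these genes. It ran from 6.92 to 9.26 in corn oil litters with a median of 7.92, and from 6.56 to 8.36 in flutamide litters with a median of 7.64. The ends were again corn oil replicate 1 and flutamide replicate 4, 6.49-fold apart, and the SD of Ada within groups was rank 8 of all genes. Klk6, a kallikrein-related protease, had an r of 0.897, and its lowest and highest litters were 6.82 and 7.97. Gda, guanine deaminase, had an r of 0.895 with litters from 4.47 to 5.67. Serhl2, a serine hydrolase-like gene, had an r of 0.866 with litters from 6.91 to 8.51.

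The other 3 of the 8 genes most like Mup5 moved over small ranges. Vipr1, a receptor of vasoactive intestinal peptide, had an r of 0.888 over a range of 0.44, the olfactory receptor gene Or8b55 an r of 0.880 over 0.40, and Egr2, a zinc finger transcription factor, an r of 0.878 over 0.56. Corn oil replicate 1 was the highest litter for 8 of 8 genes, and flutamide replicate 4 the lowest for 7, Egr2 being lowest in corn oil replicate 2. The genes were picked for following Mup5, whose own ends are corn oil replicate 1 and flutamide replicate 4. These counts were therefore partly fixed by the choice. Without those 2 litters the r was 0.886 for Chpt1, 0.827 for Klk6, 0.757 for Gda, 0.824 for Ada, 0.735 for Vipr1, 0.682 for Or8b55, 0.822 for Egr2 and 0.721 for Serhl2. None of the 8 differed between the groups at the threshold. The nearest to it by adjusted p was Ada, with -0.32 (SE 0.29; limma adjusted p = 0.778).

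None of the 8 genes most like Obp1f was among the 8 most like Mup5. With 8 picked from 14496 genes for each, no overlap is the usual outcome, so it is not read as a result. The genes most like Obp1f were picked for following it, so their highest litter was partly fixed by the choice. Flutamide replicate 1 was the highest litter for 8 of 8 of them, as it was for Obp1f. Cxcl10, a chemokine induced by interferon, stood at 8.13 in that litter, while the other flutamide litters reached at most 5.77 and the corn oil litters ran from 5.17 to 5.62. Cxcl11, a related chemokine, stood at 6.28 there, against at most 4.50 in the other flutamide litters and 4.40 in corn oil. Mx2, an interferon-induced antiviral gene, stood at 6.38 there, against at most 5.15 in the other flutamide litters and 4.93 in corn oil.

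S100a9 and S100a8, the calprotectin subunits of neutrophils and stressed epidermis, stood at 6.45 and 6.29 in flutamide replicate 1. S100a8 was also high in corn oil replicate 1, at 5.84. The r with Obp1f was 0.900 for S100a9, 0.876 for Mx2, 0.866 for Cxcl11, 0.859 for the interferon-induced gene Ifi44l, 0.843 for S100a8 and for Cxcl10, 0.831 for Timd2, a T-cell immunoglobulin and mucin domain receptor gene, and 0.809 for Gimap6, a GTPase of immune cells. Without flutamide replicate 1 alone the r was 0.405 for Cxcl10, 0.462 for Gimap6, 0.526 for Cxcl11, 0.533 for S100a8, 0.576 for Mx2, 0.657 for Ifi44l and 0.70 for S100a9, while Timd2 was at 0.834. Timd2 differed in flutamide replicate 1 little from corn oil replicate 1, at 3.16 and 3.11. Without flutamide replicates 1 and 4 together the values lay between 0.330, for Gimap6, and 0.782, for Timd2. They were 0.420 for Cxcl11, 0.451 for Cxcl10, 0.478 for S100a8, 0.592 for Ifi44l, 0.595 for Mx2 and 0.679 for S100a9. The part of the immune genes in the Obp1f value of that litter was not tested. Over all genes 63 of 14496, 0.435%, had an r of at least 0.7 with Obp1f, and 73, 0.504%, had -0.7 or lower.

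The rest of the lipocalin family showed no group difference that passed. Of 28 family genes listed, 21 were measured on a probe set of their own, and 0 rose and 0 fell at the limma threshold. At an unadjusted p under 0.05 the family had 1 of 21, where all genes tested had 1328 of 14497, or 9.16%. The median difference over the 21 was 0.01, against 0.005 over all genes tested. The smallest p-values beside the members belonged to Obp2a, an odorant-binding protein, with 0.27 (SE 0.11; limma adjusted p = 0.455), Orm1, the acute-phase carrier orosomucoid, with -0.19 (SE 0.12; limma adjusted p = 0.651), and Rup2, a urinary protein, with -0.17 (SE 0.10; limma adjusted p = 0.629). None of the 19 other family genes had an r of at least 0.7 with either member. Over all genes 0.517% had it with Mup5 and 0.435% with Obp1f, so 0 of 19 is near those shares. The median r of the 19 was -0.209 with Mup5 and -0.235 with Obp1f. Pbsn, a lipocalin placed in the androgen list below, had -0.712 with Obp1f, farther from 0 than any of the 19. Among the 19, the farthest from 0 with Mup5 were Rup2 at -0.656 and Lcn1, a tear lipocalin, at -0.648. Rup2 was put on the list as a urinary protein, and it was not checked to be a lipocalin. It is counted among the 21 and the 19 genes and in their medians, which were not computed again without it. Lcn2, the antimicrobial siderophore carrier, had an r of 0.039 with Mup5.

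Because major urinary proteins are known from the preputial gland, genes of the sebocyte, its main cell, were set beside it. In bulk samples fewer cells of a type and less RNA per cell cannot be told apart. Of 28 listed sebaceous and preputial gland genes 21 were measured, 0 rose and 0 fell at the limma threshold with 2 at an unadjusted p under 0.05 (9.16% over all genes), and their median difference was -0.01. The smallest p-values were those of Mogat1, a monoacylglycerol acyltransferase, with 0.21 (SE 0.09; limma adjusted p = 0.517), Mc5r, the melanocortin receptor of sebaceous glands, with 0.13 (SE 0.06; limma adjusted p = 0.542), and Acsl1, an acyl-CoA synthetase, with 0.13 (SE 0.07; limma adjusted p = 0.580).

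None of the 21 sebaceous genes reached an r of 0.7 with Mup5. Over all genes 0.517% did, so 0 of 21 is near that share. The median r of the 21 was 0.0746, against 0.0075 over all genes. Single genes went both ways. The highest with Mup5 were Fasn, fatty acid synthase, at 0.634 and Apoc1 at 0.550, and the lowest were Dgat2l6 at -0.513 and Elovl3 at -0.382. With Obp1f the median r was -0.136, and the farthest from 0 were Elovl3 at -0.6685 and Dgat2l6 at -0.627. The mean of the list ran from 6.04 to 6.15 over the corn oil litters and from 6.01 to 6.17 over the flutamide litters. In corn oil replicate 1, where Mup5 was highest, the list mean was 6.14, and in flutamide replicate 4, where it was lowest, 6.08.

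Markers of other tissues that could bring in lipocalin RNA were read the same way. Of 17 hepatocyte genes, 17 were measured and 0 passed in either direction with limma, also at an unadjusted p under 0.05. The list mean ran from 4.54 to 4.66 over corn oil and from 4.54 to 4.70 over flutamide litters, with 4.54 in both corn oil replicate 1 and flutamide replicate 4. Its median r with Mup5 was 0.0942, and single genes went both ways. The highest were Afp, alpha-fetoprotein, at 0.595 and Serpina1, the alpha-1 antitrypsin gene, at 0.564. The lowest were Tat at -0.481 and Ahsg at -0.460. With Obp1f the farthest from 0 were Apoh at 0.594 and Apoa1 at -0.585. Of 26 genes of salivary, lacrimal, nasal and sweat glands 18 were measured and 0 passed. Of the 18, 6 had an unadjusted limma p under 0.05, against 9.16% over all genes. Of these 6, 4 were higher after flutamide (Tff2, Scgb1a1, Smgc and Aqp5) and 2 lower (Ltf and Krt8). The list was chosen with earlier results of these data known, so this count is a description. The part of these genes in the lipocalin values was not tested. The list mean ran from 5.00 to 5.18 over corn oil and from 5.12 to 5.21 over flutamide litters, and was 5.00 in corn oil replicate 1 and 5.17 in flutamide replicate 4. Scgb3a1, a secretoglobin, was the farthest from 0, with an r of -0.636 with Mup5 and -0.596 with Obp1f.

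Markers of the foreskin's own cell types were read as list means in the litters at the ends of the Mup5 range, corn oil replicate 1 and flutamide replicate 4. A mean over many genes varies less than 1 gene by construction, so these values are set against the list's own range over the 14 litters. The fibroblast list stood at 9.36 and 9.21, where all litters ran from 9.20 to 9.40, so these 2 litters lay near its opposite ends. The cornified epidermis list stood at 10.25 and 10.19 in a range of 10.10 to 10.26, and the basal keratinocyte list at 8.40 and 8.41 in a range of 8.24 to 8.46. The skeletal muscle list stood at 6.03 and 5.97 in a range of 5.79 to 6.36. The part of these cell types in the Mup5 value was not tested.

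Among the foreskin lists, smooth muscle and hair follicle genes had more low unadjusted p-values than all genes. The lists were chosen with earlier results of these data known, so that excess may be partly fixed by the choice. It is a description and was not tested. No gene of these lists passed the limma threshold. Over all genes tested, 6921 of 14497 differences were below 0. Of 13 measured smooth muscle and pericyte genes 5 had an unadjusted p under 0.05 (9.16% over all genes), 10 were below 0 and the median difference was -0.13. Its list mean ran from 6.89 to 7.05 over corn oil and from 6.75 to 6.92 over flutamide litters, with 6.94 in corn oil replicate 1 and 6.79 in flutamide replicate 4. Of 13 hair follicle genes 5 had an unadjusted p under 0.05, 10 were below 0 and the median difference was -0.12, and the list mean was 6.26 and 6.25 in those 2 litters, near the low end of its range of 6.22 to 6.53. Fibroblast and skeletal muscle genes had 1 each of 10 and 9, and basal keratinocyte and cornified epidermis genes 0 of 6 each.

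Median r with Mup5 ran from -0.238 for skeletal muscle to 0.172 for fibroblast genes. Klk7, a kallikrein protease of the cornified layer, had the highest single value in any of these lists, 0.690. The 15 measured genes of androgen metabolism and response gave 0 limma calls, with 2 at an unadjusted p under 0.05 (9.16% over all genes), a median difference of 0.01 and a median r of -0.0312 with Mup5. In that list Pbsn, a lipocalin known as probasin in the prostate, had an r of -0.712 with Obp1f, and Fkbp5, a gene induced by steroid hormones, had -0.565 with Mup5.

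**Figure D3:**
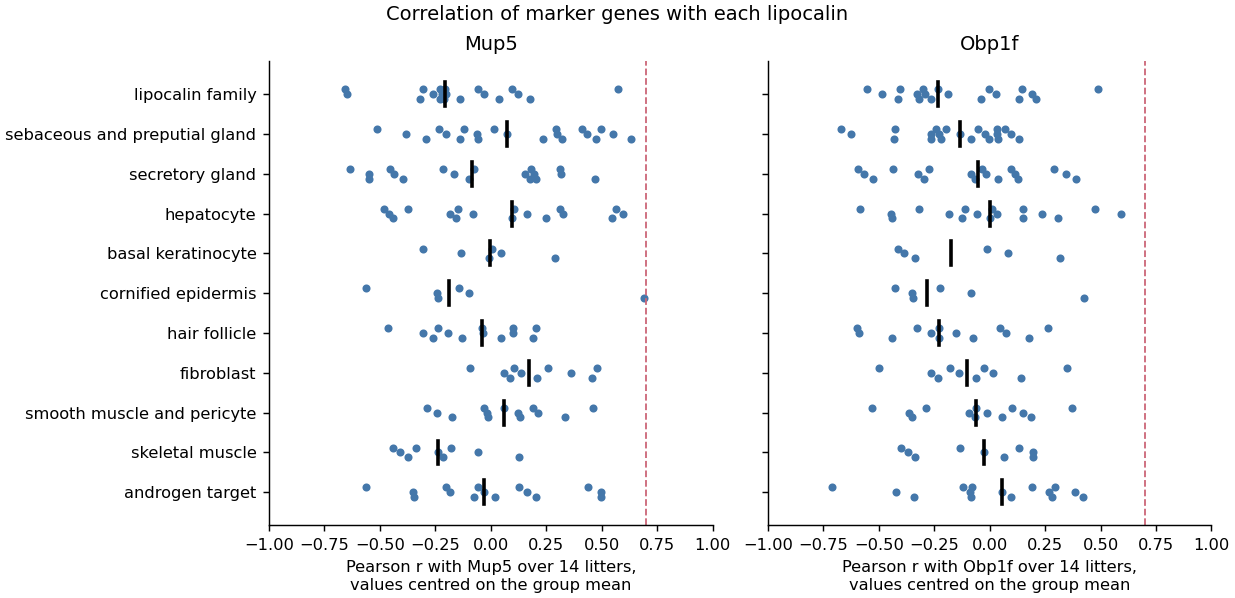
Pearson r over 14 litters, with values centred on the group mean, of each measured gene of 11 lists with Mup5 (left) and with the brighter Obp1f probe set (right); black bars are list medians and the dashed line marks 0.7. No gene of these lists lies right of the line, the closest being Klk7 at 0.690 with Mup5, while Pbsn lies at -0.712 with Obp1f. Over all genes 0.517% reach 0.7 with Mup5 and 0.435% with Obp1f.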

How the data were processed

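Per the labels' protocols and the series' design text, RNA of 14 samples was amplified with NuGEN kits and hybridised to Affymetrix Gene 1.0 ST arrays. The authors deposited log2 values made with RMA, per the submitters' processing notes, a method that removes background, normalises the arrays to each other and summarises probes, and that shrinks differences of dim probe sets. Its version and the array's genome build are not named there. Sample medians lay within 0.0735 of each other.

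Probe sets were named from GEO's platform annotation, with symbols updated for 14471 of 14497 genes through RefSeq (GRCr8), and the brightest single-symbol probe set stood for each gene. The group comparison used limma 3.58.1 (R 4.3.3), two-sided, adjusted over all genes, at 0.05, and was tested on simulated data. The number of arrays limits precision (median standard error 0.07). Exact permutation tests ran over 3432 splits, and correlations used 100000 resamples or, within groups, all orders. Alternatives were other gene sets, scalings, variance models, array weights, a replicate block and each litter left out, the last also for the shared probe sets and like genes, added after seeing the data. A planned test of the spread between groups was dropped, since the members were chosen for it. Named genes were the members, the 3 smallest p-values of the lipocalin and sebaceous lists, and the 8 genes most like each member. Up to 2 genes per list were also named by absolute r. Lcn2, 6 secretory gland genes, and the sebaceous and hepatocyte genes of lowest r with Mup5 were named after their values were seen. Members and lists were chosen with earlier results of these data known.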

Additional observations from a re-analysis of the deposited data

Results flagged for a closer look

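Among the probe sets and genes described, 60 groups of 7 litters were checked for a litter standing apart from its own group, and 8 held at least 1. Chance flags about 1 in 20 groups of independent, unselected genes, a rate that does not apply here. The members were chosen for their spread, the shared probe sets overlap Mup5 in sequence, and the other genes were picked for their r with Mup5 or Obp1f, so these values are a description. Obp1f on probe set 10938119 stood at 2.50 in corn oil replicate 6, while the other corn oil litters lay between 1.93 and 2.04. Klk6 stood at 7.97 in corn oil replicate 1, against 7.36 in the next litter of that group. S100a8 stood at 5.84 in corn oil replicate 1, against 5.19 in the next.

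The other results of this kind came from 1 litter, flutamide replicate 1, which also had the highest Obp1f value on probe set 10933772. The genes were picked for following that probe set, so a high value in this litter was partly fixed by the choice. In it S100a9 stood at 6.45, Mx2 at 6.38, Cxcl11 at 6.28, S100a8 at 6.29 and Cxcl10 at 8.13. The next flutamide litter stood at 5.07 for S100a9, 5.15 for Mx2, 4.50 for Cxcl11, 5.10 for S100a8 and 5.77 for Cxcl10.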

How the results depend on the processing

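The Mup5 difference of -0.53 kept its direction and missed the threshold in the 7 other fits that held it and with each of the 14 litters left out, from -0.72 to -0.20 (limma adjusted p 0.454 to 0.890). Without corn oil replicate 1 and flutamide replicate 4 together, an alternative chosen after seeing the data, it was 0.01 (0.00533; exact permutation p = 0.989). With 1 litter left out, the Obp1f difference on the brighter probe set ran from -0.40 to 0.04 and turned positive in 3 cases, at 0.0114, 0.0111 and 0.0364 without flutamide replicates 2, 3 and 4. On probe set 10938119 it ran from -0.186 to -0.0482, with an exact permutation p of 0.0291 only without flutamide replicate 6. The correlation of Mup5 and Obp1f ran from 0.290 to 0.544. The differences in mean absolute deviation ran from -0.28 to 0.10 for Mup5, 0.36 to 0.67 for Obp1f and -0.004 to 0.11 for its other probe set.

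With the replicate number as a block, the differences were -0.53 (SE 0.22; limma adjusted p = 0.454) for Mup5 and -0.11 (limma adjusted p = 0.915) for Obp1f, and 0 genes passed (1446 at an unadjusted p under 0.05). For Mup5 the unadjusted limma p was 0.0322 with the block, against 0.1975 in the main fit. Over all genes, deviations from the group means correlated between same-numbered samples at -0.07 to 0.15, and 1 of 7 pairs exceeded 0.1. The replicate numbers were therefore not taken as pairs, and pairing for Mup5 alone was not tested. The count of genes passing was 1, 2 among genes above the median level and with an intensity trend and robust variances, 0 with samples centred on their medians (1268 at an unadjusted p under 0.05), and from 0 to 1 with single litters left out (1103 to 1481). Neither member was among the genes above the median level used in that fit. The cause of these changes was not tested.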
